A study of Homo sapiens with 8 samples.

Results

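The genes described here encode 10 secreted interleukins and colony-stimulating factors, namely IL6, IL11, LIF, IL1A, IL1B, IL18, IL24, CSF1, CSF2 and CSF3. They were chosen by name from the 17649 genes of the expression table, by a rule that uses no measured value but was set with earlier results of these data known, and all 10 had a row. RNA was sequenced from MDA-MB-231 cells, an established human breast cancer line that is ER negative, after 48 h with or without 1 µM carboxymethyllysine (CML), an advanced glycation end product formed when sugar reacts with lysine side chains. Exposed cultures, which the sample titles abbreviate as NCML, gave 4 libraries and control cultures, which received PBS, gave another 4, all from cells kept in low-glucose medium. The comparison asks which transcripts respond to the glycation product alone. A single cell line stands for breast cancer here, and nothing in the labels says whether the 4 replicates of a group were grown as separate cultures, so p-values measure the spread between these samples, which may be technical. In bulk RNA, fewer cells that express a gene and less RNA of it per cell cannot be told apart.

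Interleukins and colony-stimulating factors are small secreted proteins that carry signals between tumor cells, stroma and leukocytes. IL-6, IL-11 and LIF act through receptors that share the signal-transducing chain encoded by IL6ST and activate JAK kinases and STAT3, whereas IL-1α, IL-1β and IL-18 belong to a family that signals through MyD88 and IRAK kinases to NF-κB. CSF1, CSF2 and CSF3 encode M-CSF, GM-CSF and G-CSF, which drive the growth and maturation of macrophages and granulocytes, and transcripts of many of these factors are transcribed on demand and cleared quickly by proteins that bind AU-rich elements.

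The libraries held an estimated 16161801 to 18954731 reads, obtained from the smallest step between values, so that 1 read was worth 0.0535 to 0.0622 CPM, a read count scaled to the size of its library. The values of all 10 genes corresponded to whole reads in all 8 libraries, from 149 reads for IL1B to 13380 for CSF1. The 7 markers of this mesenchymal line were all measured and summed to 8446 to 8802 CPM in control and 8766 to 9082 CPM in CML libraries, led by VIM with a control mean of 4068 CPM, while the luminal genes CDH1 and GATA3 averaged 0.74 and 4.96 CPM in controls and KRT19 averaged 289 CPM. ESR1 was not analysed here. The 4 leukocyte markers measured summed to 1.99 to 3.76 CPM in control and 2.37 to 2.8 CPM in CML libraries. The 6 fibroblast and endothelial markers measured summed to 4.6 to 5.37 CPM in control and 4.8 to 8.9 CPM in CML libraries, with COL3A1 at 3.35 CPM in 1 CML library and at most 0.0605 CPM in controls.

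None of the 10 genes passed the false discovery rate (FDR) of 0.3 that the study set for transcripts, in a limma fit on log2(CPM + 1) with p-values adjusted over all genes, which 158 genes or 0.895% of the table passed. No minimum level was set in that fit, whereas the study describes dropping low genes for its tumor data. On the genes averaging at least 1 CPM alone, CSF2 passed, with an adjusted p of 0.0454 in limma. All 10 had a mean above that of controls, with a median log2 difference of 0.12, against 0.007 over all genes and 0.018 over the genes averaging at least 10 CPM. Of those well-expressed genes, a comparison group chosen after the values were seen, 62.6% had a difference above 0. At an unadjusted p under 0.05, limma gave 4 of the 10, namely CSF2, IL24, IL6 and IL11, each with the larger mean in CML libraries, where 4.77% of all genes and 6.6% of the well-expressed genes met the same condition in that direction. For IL24 and IL6 among these, the limma standard error was smaller than the error from counting reads alone would be. For 3 of the 10, CSF2, IL24 and IL6, every CML library lay above every control library, which held for 2.5% of all genes and 3.52% of the well-expressed ones. No gene of the 10 showed the opposite separation, but the share of all genes that did was not computed. Set side by side by replicate number, which is not known to pair the libraries, 7 of the 10 had the larger value under CML in all 4 comparisons, all but LIF, IL1B and CSF1, which held for 9.94% of all genes and 14.3% of the well-expressed ones.

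**Figure D1:**
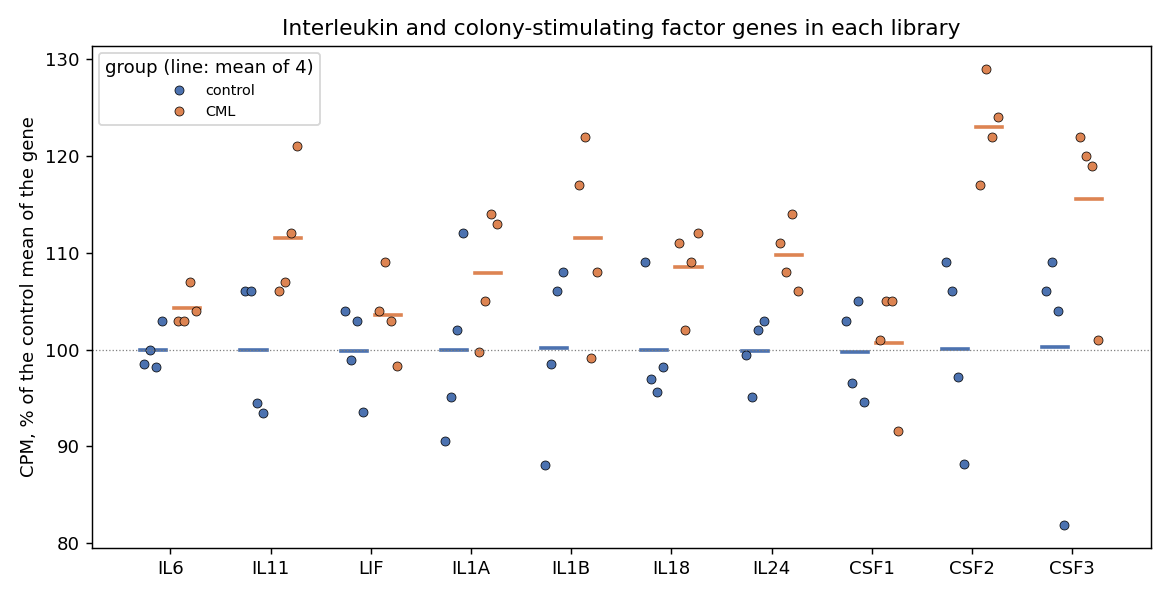
Each point is 1 library, plotted as CPM in percent of the gene's control mean (vertical axis), for the 10 genes along the horizontal axis in control (blue) and CML-exposed (orange) cells, with a line at the mean of 4. The groups separate for IL6, IL24 and CSF2, by a narrow margin for IL6, while those of CSF1 and LIF lie across each other.

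CSF2, which encodes GM-CSF (chr5:132073789-132076170, plus strand, GRCh38), had the largest difference among the 10. Control libraries held 71.7, 69.9, 64.1 and 58.2 CPM in replicates 1 to 4, and CML libraries held 77.5, 85.1, 80.7 and 81.8 CPM. The lowest CML value stood above the highest control value, and the controls were spread more widely than the exposed samples. Means were 66 ± 6.12 CPM (SD, n = 4) for the controls and 81.3 ± 3.14 CPM (SD, n = 4) under CML, a difference of 23.2%. On the log2(CPM + 1) scale the difference was 0.30 with a standard error of 0.068 and a 95% interval of 0.14 to 0.46, and limma gave an unadjusted p of 0.00303. The adjusted p was 0.309, the gene being number 172 of the table by p, just beyond the threshold. When only genes averaging at least 1 CPM were tested, its adjusted p was 0.0454, and without control replicate 4, the lowest control, the difference was 0.24 with an adjusted p of 0.213. The other ways of leaving out a library gave adjusted p-values up to 0.561.

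The promoter windows of the 3 genes whose groups separated are shown to compare what lies before their starts. They run from 160 bases before the annotated start to the last base before it, on the plus strand of GRCh38.p14 as given by RefSeq, at chr5:132073629-132073788 for CSF2, chr7:22727040-22727199 for IL6 and chr1:206897283-206897442 for IL24. Capitals mark matches to 4 motifs searched on both strands.
CSF2: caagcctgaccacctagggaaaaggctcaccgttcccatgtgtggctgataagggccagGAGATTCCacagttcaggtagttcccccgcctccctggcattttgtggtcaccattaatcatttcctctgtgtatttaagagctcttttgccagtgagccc
IL6: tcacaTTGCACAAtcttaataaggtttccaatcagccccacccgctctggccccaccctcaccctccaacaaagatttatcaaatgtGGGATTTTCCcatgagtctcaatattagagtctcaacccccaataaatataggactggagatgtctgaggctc
IL24: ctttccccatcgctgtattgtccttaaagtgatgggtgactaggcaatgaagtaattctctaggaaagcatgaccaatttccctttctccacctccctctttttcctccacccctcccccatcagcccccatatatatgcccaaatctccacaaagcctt

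In the CSF2 window, capitals mark GAGATTCC, the core of the CK-1 element known from cytokine promoters, which starts 101 bases upstream and is found within 250 bases upstream in 0.735% of 35116 promoters. The IL6 window held the NF-κB consensus 73 bases upstream, matched in 5.21% of all promoters, and the C/EBP pattern TTGCNNAA 155 bases upstream, matched in 9.05%. No letters of the 4 motifs were found before IL24. The AP-1 pattern TGANTCA, present in 6.57% of promoters, was matched 96 bases before IL11 and in both entries of IL1A, and TTGCNNAA was matched 215 bases before IL1B. These matches describe letters and not occupied sites. RefSeq promoter entries covered 6 of the 10 genes, all but LIF, IL18, CSF1 and CSF3.

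CSF3, which encodes G-CSF (chr17:40015440-40017813), had the second largest difference and, among controls, the largest coefficient of variation. Control libraries 1 to 4 held 50.6, 51.8, 49.5 and 39.1 CPM, and CML libraries held 58.4, 57.1, 56.7 and 48.1 CPM. Replicate 4 was lowest in both groups, and its CML value lay below 3 of the 4 controls, so the groups overlapped. Means were 47.7 ± 5.85 CPM (SD, n = 4) and 55.1 ± 4.71 CPM (SD, n = 4), 15.4% apart, and the log2 difference of 0.21 had a 95% interval of −0.04 to 0.45 (adjusted p = 0.737, limma). Leaving out control replicate 4 gave a log2 difference of 0.12, whereas leaving out CML replicate 4 gave 0.27, with adjusted p-values of 0.65 and 0.62.

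CSF1, which encodes the macrophage growth factor M-CSF (chr1:109910506-109930992), was the most abundant of the 10 and showed the smallest difference. It ranged from 642 to 716 CPM in control and from 621 to 716 CPM in CML libraries, with means of 679 ± 35.7 CPM (SD, n = 4) and 685 ± 43.9 CPM (SD, n = 4). The groups covered nearly the same range. Its log2 difference was 0.01, and the 95% interval of −0.12 to 0.15 bounds the difference that these 8 libraries leave possible, although with centring of the libraries on their median the estimate was −0.008.

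Of the genes whose products signal through IL6ST, IL6 (chr7:22727200-22731998) encodes the main inducer of the acute-phase response. Control libraries held 62.5, 63.7, 62.3 and 65.3 CPM and CML libraries 65.4, 65.3, 68.2 and 66 CPM. The groups did not overlap, but the highest control and the lowest CML library were 65.31 and 65.33 CPM, and with the libraries centred on their median they overlapped. IL6 averaged 63.5 ± 1.39 CPM (SD, n = 4) for the controls and 66.2 ± 1.34 CPM (SD, n = 4) under CML, 4.39% apart. The log2 difference of 0.06 had a 95% interval of 0.01 to 0.11 and an unadjusted p of 0.0247 in limma (adjusted p = 0.55). That interval and p rest on a standard error of 0.021, below the 0.031 that counting error alone would give. Over 17 alternatives the limma adjusted p of IL6 ran from 0.28, without control replicate 4, to 0.864, on genes averaging at least 1 CPM.

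IL11, whose product acts on megakaryocytes, fibroblasts and bone (chr19:55364382-55370463), held 45.7, 46.0, 40.9 and 40.4 CPM in control and 46.0, 46.1, 48.6 and 52.3 CPM in CML libraries. Only control replicate 2, at 46.00 CPM, exceeded the lowest CML value of 45.96 CPM. The means of 43.2 ± 3.01 CPM (SD, n = 4) and 48.2 ± 2.96 CPM (SD, n = 4) differed by 11.5%, a log2 difference of 0.15 with a standard error of 0.061 (unadjusted p = 0.0391 and adjusted p = 0.613, limma). LIF, which encodes leukemia inhibitory factor (chr22:30240453-30246759), ranged from 137 to 152 CPM in control and from 143 to 159 CPM in CML libraries. Its groups overlapped, and its log2 difference was 0.05 (95% interval −0.05 to 0.15, adjusted p = 0.897).

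The interleukin-1 family genes overlapped between groups. IL1A, which encodes an alarmin active without cleavage (chr2:112773925-112784493), held 23.2 to 28.8 CPM in control and 25.5 to 29.2 CPM in CML libraries, with a log2 difference of 0.11 (95% interval −0.07 to 0.28). IL1B, whose product needs cleavage by caspase-1 (chr2:112829751-112836779), held 8.88 to 10.9 CPM and 9.99 to 12.3 CPM, with a log2 difference of 0.14 (95% interval −0.06 to 0.34). For both genes the interval includes 0, and their mean differences of 7.86% and 11.4% compare with coefficients of variation of 9.49% and 8.9% among the controls. IL18, an inducer of interferon gamma that is likewise cleaved by caspase-1 (chr11:112143260-112164094), held 18.2, 16.2, 16 and 16.4 CPM in control and 18.5, 17, 18.2 and 18.7 CPM in CML libraries. Apart from the first control library, the IL18 controls lay below every exposed library, and the log2 difference was 0.11 (95% interval −0.01 to 0.23, unadjusted p = 0.0729, adjusted p = 0.708, limma).

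IL24, an interleukin-10 family cytokine studied for its ability to kill tumor cells (chr1:206897443-206904139), held 11.9, 11.4, 12.3 and 12.4 CPM in control and 13.3, 13, 13.7 and 12.7 CPM in CML libraries. Each CML library lay above each control. Means were 12 ± 0.434 CPM (SD, n = 4) and 13.2 ± 0.436 CPM (SD, n = 4), 9.88% apart, with a log2 difference of 0.13 and a 95% interval of 0.03 to 0.22 (unadjusted p = 0.017, adjusted p = 0.493, limma). Here too the interval and p rest on a standard error, 0.041, below the 0.07 that counting error alone would give. Over 17 alternatives the difference stayed between 0.10 and 0.14. The limma adjusted p ran from 0.355 to 0.803, the highest on genes averaging at least 1 CPM. IL24 shares its locus with FCMR on the opposite strand, which was measured at 2.66 to 4.6 CPM and averaged 3.04 CPM in control and 4.10 CPM in CML libraries. The sources used here do not say whether strand was used in counting. Reads from any transcribed stretch that FCMR and IL24 share may therefore have been given to either gene or to none. The part of FCMR in the IL24 difference was not tested. IL6 overlaps STEAP1B in the same way, a gene at 0.062 to 0.416 CPM.

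The spread between replicates was not the same for all 10 genes. The coefficient of variation of the 4 controls was 12.2% for CSF3, 9.49% for IL1A and 9.28% for CSF2, but 2.19% for IL6 and 3.62% for IL24. From their reads alone, counting error would give 3.05% for IL6 and 7.01% for IL24 in controls, above the observed figures. Whether the spread of 4 libraries fell below counting error by more than chance was not tested. Counting error alone gives the log2 difference a standard error of 0.031 for IL6 and 0.070 for IL24, larger than the 0.021 and 0.041 of the limma fit, and the same held for IL18. CSF2 showed the opposite, with 4466 reads in control and 5568 in CML libraries, a counting standard error of 0.029 and a fitted one of 0.068. These errors cover counting only.

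**Figure D2:**
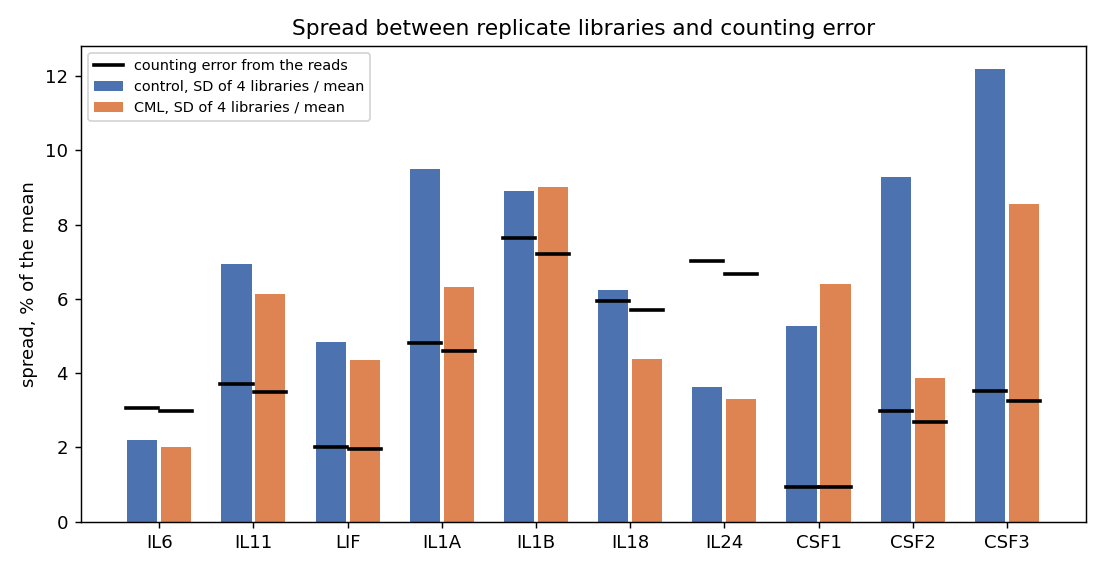
Bars give the standard deviation of 4 libraries in percent of the mean (vertical axis) for each gene in control (blue) and CML (orange) libraries, and black lines give the spread that counting error alone would produce. The bars of IL6 and IL24 end below their lines in both groups, whereas those of CSF1, CSF3, LIF and IL11 extend well above them. The CSF2 bar does so in control, but in CML it reaches 3.86% against a line at 2.68%.

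Replicate 4 was the lowest library of both groups for LIF, CSF1 and CSF3. Their transcripts had the highest GC content of the 10, at 57.1%, 59.2% and 59.4%, against 38.7% to 56.3% for the others. IL11, the next at 56.3%, was lowest in control replicate 4 but highest in CML replicate 4. The part of GC content in these values was not tested beyond the adjustment that follows. Control replicate 4 was the lowest control for 5 genes and the highest for 4. When each library was freed of a smooth dependence on GC content and transcript length, an adjustment chosen after seeing the data and run on the 12122 genes that averaged at least 1 CPM and had a transcript length, 3 of the 10 genes passed the FDR of 0.3, CSF2 with an adjusted p of 0.00101, CSF3 with 0.071 and IL11 with 0.262, and their log2 differences were in the same direction. On the same 12122 genes with nothing removed, CSF2 alone of the 10 passed, with an adjusted p of 0.0374, against 0.575 for CSF3 and 0.572 for IL11. The adjustment gave 827 genes in all and the same genes without it 140, and after it the groups of IL6 overlapped.

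**Figure D3:**
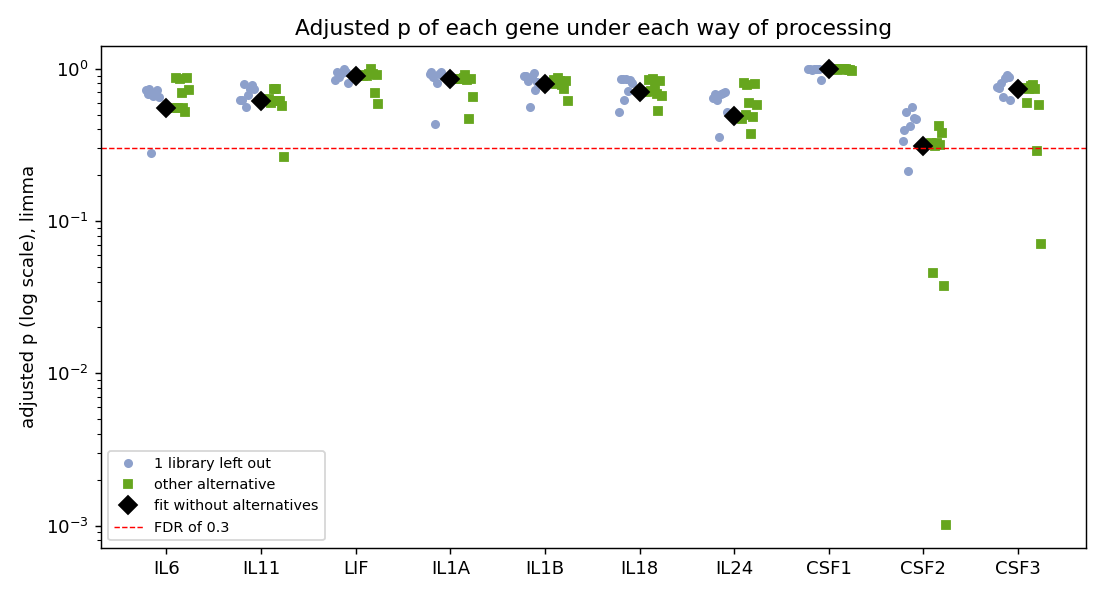
The vertical axis gives the limma adjusted p on a log scale for each of the 10 genes, with a diamond for the fit described in the text, circles for fits that leave out 1 library and squares for the other alternatives. CSF2 crosses the red line at 0.3 in 4 of 17 alternatives and CSF3 in 2, while LIF, IL1A, IL1B, IL18, IL24 and CSF1 stay above it throughout.

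Compared per kilobase of transcript, CSF1 led the control levels at 170 ± 8.94 CPM per kb (SD, n = 4), followed by CSF2 at 83.7, IL6 at 56.3, LIF at 37.7, CSF3 at 31.7, IL11 at 18.2, IL18 at 15, IL1A at 12.7, IL1B at 6.69 and IL24 at 6.07. Neighbours in this order did not overlap between control libraries, except IL1B at 5.9 to 7.22 and IL24 at 5.77 to 6.26 CPM per kb. IL18 and IL1A came close, their ranges meeting at 14.3. In CML libraries CSF2 averaged 103 CPM per kb and remained second to CSF1 at 171.

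Of the 15 receptor chains for these factors, 12 were measured and 8 averaged at least 0.5 CPM. IL18RAP, CSF2RB and CSF3R were not analysed here. IL6ST, the chain shared by the IL-6 family, was by far the most abundant at 100 CPM per kb in control, whereas IL6R, the chain that binds IL-6, was at 0.0843 CPM per kb and CSF1R, the receptor of M-CSF, at 0.135. None of the 12 passed the FDR of 0.3 and none had groups that did not overlap. The lowest p belonged to IL1R1, the signaling receptor of IL-1, with 8.13 ± 0.855 CPM (SD, n = 4) for the controls and 6.82 ± 0.302 CPM (SD, n = 4) under CML. Its log2 difference was −0.22 (unadjusted p = 0.0253, adjusted p = 0.553, limma).

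For the IL-6 family receptors the log2 differences were 0.06 for IL6ST (adjusted p = 0.844), 0.10 for IL11RA (0.957) and −0.07 for LIFR (0.897). IL1RAP, the accessory chain of the IL-1 receptor, differed by 0.05 (adjusted p = 0.919), IL18R1 by −0.10 (0.967) and IL20RB, a receptor chain for IL-24, by −0.14 (0.917). CSF2RA, the GM-CSF binding chain, differed by −0.01 (adjusted p = 1). Its X and Y pseudoautosomal rows were identical and were averaged, and its values lay up to 0.5 reads from a whole read. Whether reads were divided between the rows was not tested, and if they were, the level of CSF2RA given here is too low.

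**Figure D4:**
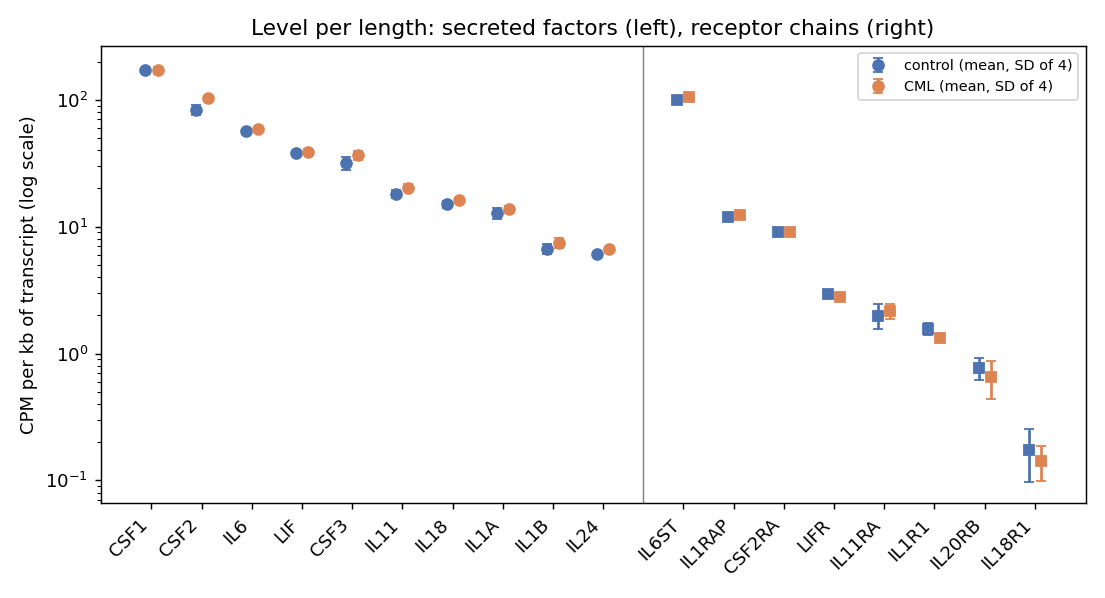
Mean CPM per kilobase of transcript (vertical axis, log scale) with the SD of 4 libraries is shown for the 10 secreted factors on the left and 8 receptor chains on the right, in control (blue) and CML-exposed (orange) cells. CSF1 at 170 and the receptor chain IL6ST at 100 lead their sides in control, and the remaining receptor chains sit below most ligands.

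IL18BP, the soluble decoy that neutralizes IL-18, had the largest difference among the secreted factors, receptor chains and inhibitors described here. Control libraries held 4.00, 3.90, 3.75 and 4.73 CPM, and CML libraries held 2.26, 3.00, 3.17 and 2.30 CPM. All CML libraries were below all controls, on 62 to 83 reads in control and 37 to 56 in CML libraries. The mean was 34.5% lower, and the log2 difference was −0.47 (95% interval −0.73 to −0.22) with an unadjusted p of 0.00317 and an adjusted p of 0.314 in limma, which passed the FDR of 0.3 under 5 of 17 alternatives. The gene overlaps NUMA1 on the opposite strand, which was measured at 243 to 283 CPM and averaged 265 CPM in control and 262 CPM in CML libraries. NUMA1 was thus far more abundant than IL18BP, and whether strand was used in counting is not known. The part of NUMA1 reads in the IL18BP values and their difference was not tested. SIGIRR, a membrane receptor that dampens IL-1 family signaling, differed by −0.25 (adjusted p = 0.813), and the other 4 inhibitors listed, IL1RN and IL1R2 among them, were not analysed here.

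Across 8 lists of receptors, inhibitors, related cytokines and pathway genes, 77 genes were measured, none passed the FDR of 0.3 in limma, and an unadjusted p under 0.05 was obtained for 4 with the larger mean in CML libraries and 4 with the smaller, where 4.77% and 2.9% of all genes met these conditions. The JAK, STAT and SOCS genes had a median log2 difference of 0.06 over 12 expressed members. Among them STAT3, the main transcription factor downstream of IL6ST, averaged 142 CPM in control and 152 CPM in CML libraries (log2 difference 0.10, unadjusted p = 0.019, adjusted p = 0.507), and SOCS3, its feedback inhibitor, 27.2 and 29.1 CPM (0.10, adjusted p = 0.821). PTPN11, the phosphatase SHP-2, and STAT5B differed by 0.08 and 0.06 (adjusted p = 0.652 and 0.711). Among 12 IL-1 receptor signaling genes with a median of −0.01, IRAK2, a kinase-like adaptor downstream of MyD88, averaged 75.2 and 81.9 CPM (0.12, unadjusted p = 0.0117, adjusted p = 0.458). MAP3K7 and TAB2, a kinase downstream of the receptor and its adaptor, differed by 0.09 and 0.06 (adjusted p = 0.897 for both).

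Of 11 genes that process IL-1 family cytokines, with a median of 0.01, the inflammasome sensors NLRP1 and AIM2 had log2 differences of −0.08 and −0.35 (unadjusted p = 0.0193 and 0.0354, adjusted p = 0.507 and 0.595, limma), and GSDME, a pore-forming gasdermin, 0.05 (adjusted p = 0.747). Among 12 factors that govern the stability of cytokine transcripts, with a median of 0.05, ELAVL1, an RNA-binding protein that stabilizes AU-rich transcripts, averaged 96.7 and 102 CPM with groups that did not overlap (log2 difference 0.08, unadjusted p = 0.0264, adjusted p = 0.554, limma). ZC3H12A, the endonuclease regnase that degrades IL6 transcripts, averaged 32.8 and 37.4 CPM (log2 difference 0.18, unadjusted p = 0.0406, adjusted p = 0.62, limma), and the decay factor ZFP36L1 differed by 0.05 (adjusted p = 0.762). Of the 18 other cytokines of the same families 6 were measured, with a median of 0.02 over the 5 expressed, and of 21 other interleukins 8 were measured, with a median of 0.05 over 6. Neither list held a gene with an unadjusted p under 0.05, and the 3 lowest p-values of each came with log2 differences of −0.07 for CLCF1 (adjusted p = 0.903), 0.05 for CTF1 (0.995) and 0.05 for FLT3LG (1) in the first and of 0.21 for IL12A (0.872), −0.05 for IL32 (0.897) and 0.13 for IL7 (0.946) in the second.

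**Figure D5:**
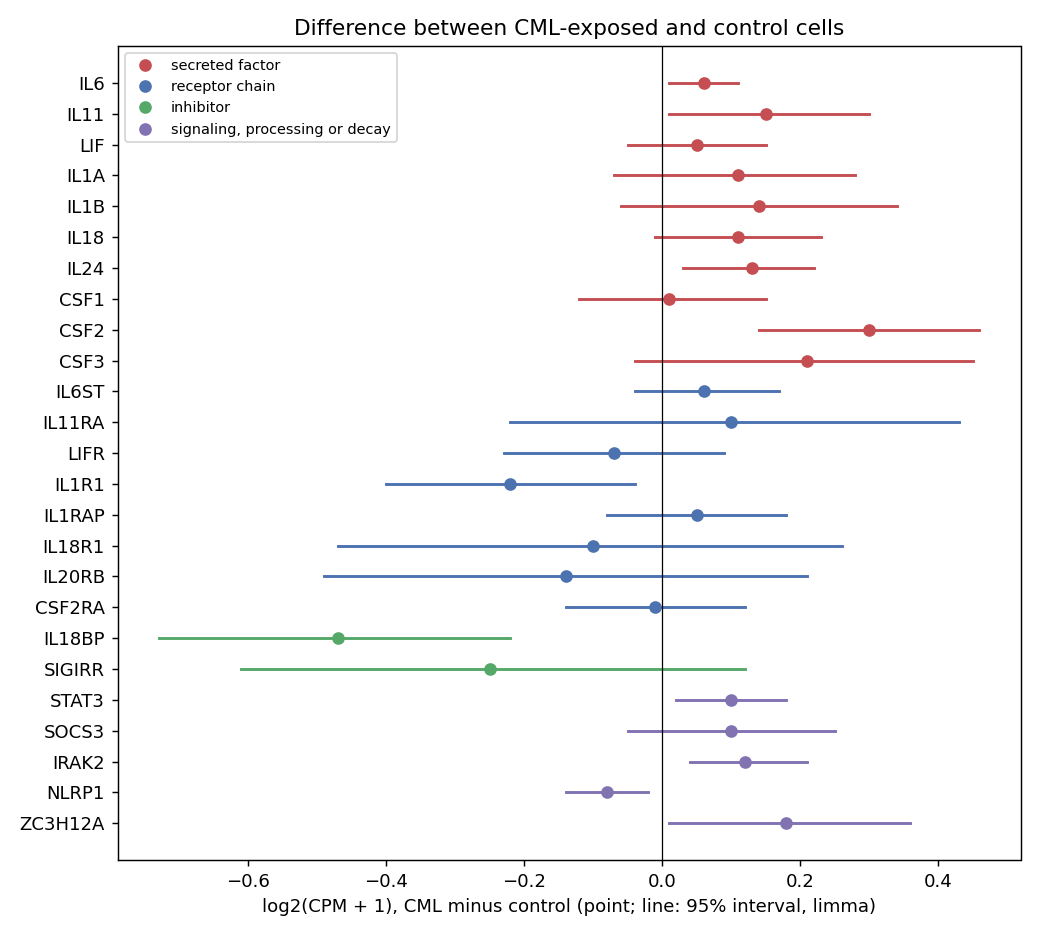
Points give the difference in log2(CPM + 1) between CML and control libraries (horizontal axis) and lines its 95% interval from limma, for the 10 secreted factors (red), 8 receptor chains (blue), 2 inhibitors (green) and 5 signaling, processing or decay genes (purple). All 10 secreted factors lie to the right of 0, from 0.01 for CSF1 to 0.30 for CSF2, and IL18BP at −0.47 lies farthest to the left.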

How the data were processed

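RNA of 8 MDA-MB-231 libraries was compared between control and CML-exposed cells (4 each), grouped by the treatment label. The authors deposited CPM values, which the submitters' processing notes link to edgeR and hg38. For tumors, the study describes a stranded mRNA kit, TopHat alignment to hg19 with Ensembl annotation, and CPM scaled by TMM. Whether this holds for these cells is not stated, the build named differs, and the counting tool and its strand setting are not given in the sources used here. The labels name both an Illumina NextSeq and a HiSeq instrument, whereas the study's methods for the CML-exposed cells name a HiSeq only. Among low and moderate values, those whole within 0.05 reads made up 85.5% to 86.6% per library, so that no count test was run. Depth was estimated from the value of 1 read.

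Rows sharing a symbol (32 symbols, of which 18 had identical pseudoautosomal Y rows) were averaged, which left 17649 genes of 17681 rows. 764 rows were at 0 in all libraries. Log2(CPM + 1) was fitted by limma 3.58.1 with trend in R 4.3.3, without covariates and without a filter, with Benjamini-Hochberg adjustment over all genes at an FDR of 0.3. The filter of low genes that the study describes for its tumor data was thus not applied. Fold changes on this scale understate the change of low genes. The fit was tried on simulated counts with the same dispersion for every gene and no effect of GC content. Such counts differ from these data, so nothing about the results here is concluded from them. Plots used matplotlib 3.10.9 (Python 3.11.15).

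The 10 genes and the pathway and marker lists were chosen with earlier results of these data known. All 10 genes, every receptor chain averaging at least 0.5 CPM, and from each other list the 3 expressed genes of smallest p were named. SOCS3, IL6R, CSF1R and genes overlapping a named one were added after their values were seen. Other settings tried were log2(CPM + 0.1), genes averaging at least 1 CPM alone, separate rows, median centring, quantile normalization, limma without trend, a replicate block, leaving out each library and, added later, removal of GC content and length on 12122 genes and a fit of those genes with nothing removed. Gene coordinates and promoters are those of RefSeq on GRCh38.p14. Overlapping genes, GC content and transcript length (1 transcript per gene) came from GENCODE lifted to GRCh37.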

Additional observations from a re-analysis of the deposited data

Results flagged for a closer look

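In 76 groups of 4 libraries, over the genes named, 1 library stood apart from the other 3 by Dixon's criterion (its gap to the nearest of the others against the range of the group) in 4 groups, where chance gives about 1 in 20. CSF3 in CML replicate 4 was at 48.1 CPM, below the 56.7 to 58.4 CPM of the other exposed libraries. SIGIRR in control replicate 4 was at 1.42 CPM against 2.27 to 2.42 CPM in the other controls. PTPN11, a phosphatase in JAK-STAT signaling, was at 448 CPM in CML replicate 4 against 428 to 429 CPM. IL1R1 in CML replicate 2 was at 7.28 CPM against 6.66 to 6.7 CPM. Without CML replicate 4, the log2 difference of CSF3 was 0.27 (adjusted p = 0.62, limma).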

How the results depend on the processing

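Without a single library the genes passing the FDR of 0.3 in limma numbered from 20 (without CML replicate 2) to 690 (without control replicate 4), against 158. Median centring gave 73 (46 higher), quantile normalization 144 (90 higher) and removal of GC and length on 12122 genes 827 (511 higher), where the same genes with nothing removed gave 140 (113 higher), against 119 higher of 158. Of the 10 secreted factors 0 passed, against 1 with the minimum of 1 CPM and 1 on those 12122 genes (CSF2 in both), 3 with GC and length removed and 0 to 2 without a library, the 2 being CSF2 and IL6 without control replicate 4. CSF1 had a log2 difference of −0.008 after median centring and −0.02 after quantile normalization. Leaving out a library gave −0.01 to 0.06 for CSF1, −0.06 to 0.02 for CSF2RA, −0.04 to 0.12 for CTF1 and −0.03 to 0.17 for FLT3LG. The causes were not tested. The other 9 secreted factors kept their direction under all 17 alternatives. Whether the replicate number pairs the libraries is not known. Deviations of same-numbered libraries correlated at 0.199, −0.0303, −0.0645 and 0.334, and 4 of 8 libraries correlated best with their own number. These values do not settle it. With the replicate block 189 genes passed, and 1 secreted factor, CSF3 (adjusted p = 0.29), while CSF2 had 0.377. Differences between same-numbered libraries were all above 0 for 7 of the 10 genes, against 9.94% of all genes and 14.3% of those averaging at least 10 CPM. For 3 of the 10, every CML library lay above every control library, against 2.5% and 3.52% of the same genes. Of the other genes named, these passed under an alternative: IL18BP under 5 of 17, STAT3, PTPN11 and ZC3H12A under 2 each, and IL1R1, NLRP1, STAT5B and IRAK2 under 1 each, with adjusted p-values down to 0.0458 for IL18BP, 0.0741 for ZC3H12A and 0.103 for STAT3. Among the 10 secreted factors, depth limits IL1B and IL24 most, at 149 to 243 reads. Several of the other genes named had far fewer, such as IL18R1 at 5 to 18 reads and AIM2 at 13 to 32.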
